A study of Bos taurus with 8 samples.

Results

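Signals of 10 keratin genes, KRT1, KRT5, KRT7, KRT8, KRT14, KRT17, KRT18, KRT19, KRT23 and KRT24, were followed on 8 one-colour bovine oligonucleotide arrays. The genes were chosen by name, and every non-control probe that the scanner files or the symbol of its accession gave to one of them was kept, which made 19 of 51282 probes and 10 of the 52 keratin genes with a probe. Of these, 4 arrays carried RNA labelled pregnant and 4 carried RNA labelled non-pregnant. Both groups were labelled as cattle, female and fetal cotyledon, which is the tuft of fetal placenta that meets the uterine caruncle in ruminants, although their protocol text speaks of the pregnant uteri of slaughtered buffalo, so buffalo RNA may have met cattle probes. The descriptions place the labelled pregnant samples after pregnancy and the labelled non-pregnant samples before it. No strain, age, treatment or stage is given in the sources used here, and whether the samples stem from different animals is not stated either, so the p-values reflect the spread among these samples alone, which may be technical.

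Keratins are the intermediate filament proteins of epithelial cells. A filament forms only from pairs of an acidic type I keratin and a basic type II keratin, and the pairs differ by tissue. Simple epithelia, trophoblast among them, rely on KRT8 with KRT18 and on KRT7 and KRT19, the basal layer of stratified epithelia relies on KRT5 with KRT14, and keratinising cells above it switch to KRT1 with KRT10. Of the genes followed here, 4 encode type II chains (KRT1, KRT5, KRT7 and KRT8) and 6 encode type I chains.

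Values are log2 of a spot's processed intensity minus the 75th percentile of its own array, so that 0 is the level of that percentile and a difference of 1 is a 2-fold difference. A difference is labelled pregnant minus labelled non-pregnant, with its standard error (SE) and n = 4 arrays in each group. A probe was tested where 4 or more of the 8 arrays had it well above background, a gene was read from its brightest tested probe, and it was called where the adjusted p of limma, a linear model test run across all 34630 tested probes, was below 0.05. Signals of different probes depend on the probe and were not ranked against each other.

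The labels do not match the placental transcripts on these arrays. Every direction given here follows the labels, and each sign would turn if the group names were exchanged, which these files do not settle. All 12 tested markers of trophoblast, the epithelium of the fetal placenta, fell in the labelled pregnant arrays, and their mean log2 signal lay between -3.84 and -2.30 there, against 4.199 to 4.79 in the labelled non-pregnant arrays. The trophoblast markers CDX2 and PLAC1 were well above background on no labelled pregnant array and on all 4 labelled non-pregnant arrays. Among 12 markers of epithelium in general, none of them a keratin, 8 fell and 0 rose, with mean signals of -0.10 to 1.35 in the labelled pregnant arrays, where array 4 was the highest, and of 2.17 to 2.42 in the labelled non-pregnant arrays. Markers of stroma rose for 5 of 9 tested genes and of leukocytes for 6 of 7, with none falling. Among 10 tested markers of uterine epithelium and gland, 4 rose and 1 fell, and all 6 tested erythroid markers fell. Of all tested genes, 62.7% were called, 29.7% higher and 33% lower. Beside this, calls covered 66.7% of the general epithelial, 55.6% of the stromal and 50% of the uterine markers. They covered 85.7% of the leukocyte markers and 100% of the trophoblast and erythroid markers. The part of these marker shifts in the keratin results was not tested. In bulk RNA fewer cells of a type and less RNA per cell cannot be told apart. The 75th percentile of the intensity was 798 to 1347 on the labelled pregnant arrays and 1168 to 1797 on the labelled non-pregnant arrays, which shared 1 slide and 1 scan time. Each group filled its own row of the slide, so slide row and group cannot be told apart. Correlations over all tested probes were 0.943 to 0.989 among labelled pregnant arrays, 0.957 to 0.987 among labelled non-pregnant arrays and 0.736 to 0.783 between the groups.

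The probes are 60 bases long, and those on which the results turn are printed 5′ to 3′ because the direction of a difference depended for KRT8 and KRT18 on which probe was read. Probes of a gene are numbered from the brightest. Capitals mark the hexamer AATAAA, the polyadenylation signal found shortly before the 3′ end of most messenger RNAs, where a probe holds it.
KRT8 probe 4: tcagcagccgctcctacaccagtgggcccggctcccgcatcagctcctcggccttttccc
KRT8 probe 3: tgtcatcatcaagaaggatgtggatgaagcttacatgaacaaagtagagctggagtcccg
KRT8 probe 2: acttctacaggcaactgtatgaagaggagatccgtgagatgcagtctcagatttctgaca
KRT8 probe 1: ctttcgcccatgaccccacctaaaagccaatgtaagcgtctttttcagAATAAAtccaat
KRT18 probe 3: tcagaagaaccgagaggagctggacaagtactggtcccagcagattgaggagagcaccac
KRT18 probe 2: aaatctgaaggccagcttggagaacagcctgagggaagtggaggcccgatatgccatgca
KRT18 probe 1: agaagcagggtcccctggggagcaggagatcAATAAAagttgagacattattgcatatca
KRT19 probe 1: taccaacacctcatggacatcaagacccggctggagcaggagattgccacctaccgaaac
KRT19 probe 2: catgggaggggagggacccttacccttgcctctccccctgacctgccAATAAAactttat
KRT7 probe 1: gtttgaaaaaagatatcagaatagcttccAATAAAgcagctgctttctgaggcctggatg
KRT14 probe 1: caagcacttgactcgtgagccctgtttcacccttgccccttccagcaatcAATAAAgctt
KRT1 probe 1: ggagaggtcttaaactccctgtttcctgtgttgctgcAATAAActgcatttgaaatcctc
KRT24 probe 1: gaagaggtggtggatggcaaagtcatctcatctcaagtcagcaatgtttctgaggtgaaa
Sequences and positions were taken from the scanner files, and their headers give the build as HGSC Btau_3.1.

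The KRT8 probes lay on the plus strand at chr5:29997842-29997901 (probe 4), chr5:30001773-30002266 (probe 3), chr5:30002293-30002931 (probe 2) and chr5:30005397-30005456 (probe 1), and so run from the 5′ to the 3′ end of the gene in the order printed. The KRT18 probes lay 40.8 kb away on the minus strand, at chr5:29956921-29957082 (probe 3), chr5:29956573-29956818 (probe 2) and chr5:29955922-29955981 (probe 1), also printed 5′ to 3′. KRT7 was read at chr5:30558808-30558867 on the minus strand. The type I genes other than KRT18 lay on the minus strand of chromosome 19, with KRT24 at chr19:42168143-42168202, the KRT19 probes at chr19:43089461-43089520 and chr19:43089286-43089345, and KRT14 at chr19:43151162-43151221. The KRT1 probe has no position in the files. The sources used here hold no exon or intron annotation of these positions, and 6 of the 19 probes have listed positions spanning more than 60 bases. AATAAA was searched in the letters as printed and on the other strand as TTTATT. It stood in 6 of the 19 keratin probes, 1 each of 6 genes, against 8.35% of all 51282 probes, and TTTATT stood in 0 of the 19 against 3.30%. The longest run of bases that a probe of these genes shared with a probe of another keratin was 18, between KRT19 probe 1 and a KRT15 probe, followed by 16 between KRT8 probe 3 and a KRT75 probe.

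Of the 10 genes, 7 had a tested probe, and 5 of these were called. KRT1 and KRT24 were higher and KRT8, KRT14 and KRT19 lower in the labelled pregnant arrays, while KRT7 and KRT18 were not called and KRT5, KRT17 and KRT23 were not tested. Over all 12898 tested genes, 62.7% were called, 29.7% higher and 33% lower, so a call was the common outcome on these arrays. Called genes were divided into 47.3% higher and 52.7% lower. Median scaling changed this to 34.6% higher and 65.4% lower, and omitting the scaling to 31.3% higher and 68.7% lower. The median difference of the 7 tested keratins was -0.24, within a range of -1.91 to 4.04, beside a median of -0.03 over all tested genes and quartiles of -1.01 and 1.01. For KRT8, KRT14, KRT19 and KRT24, 4 of the 7 genes, the values of both groups were fully separated, beside 60.3% of all tested genes. Of the 13 tested probes 3 were called higher and 4 lower, beside 59.4% of all tested probes called in either direction. Both called and at least 2-fold different were 4 of the 7, beside 48% of all tested genes.

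**Figure D1:**
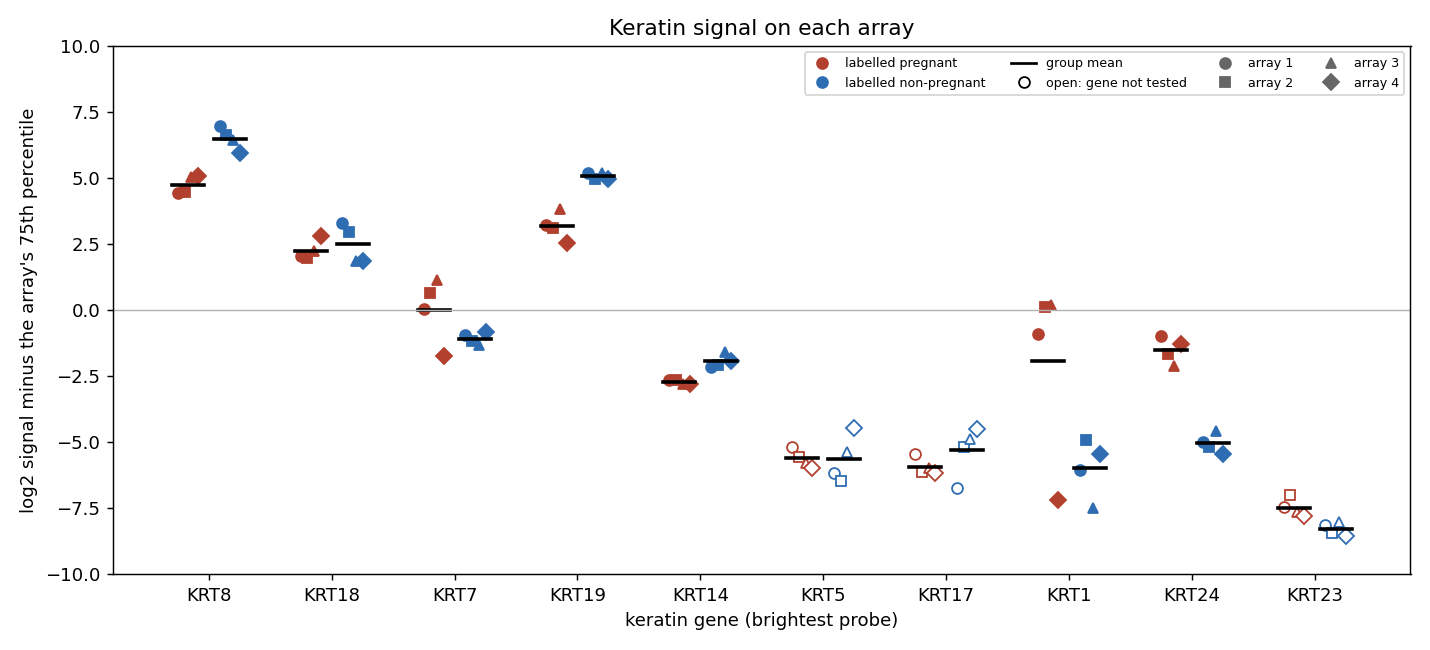
Log2 signal, scaled to the 75th percentile of each array, for the brightest probe of each of the 10 keratin genes, with labelled pregnant arrays in red on the left and labelled non-pregnant arrays in blue on the right, symbols for arrays 1 to 4 and bars for group means; open symbols mark genes that were not tested. KRT8, KRT19 and KRT14 sit lower and KRT24 sits higher in all 4 labelled pregnant arrays, and labelled pregnant array 4 lies apart from the other 3 for KRT1 (-7.18) and KRT7 (-1.73).

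KRT8, the main type II chain of simple epithelium, fell on its brightest probe. This 3′ probe gave 4.43, 4.46, 5.03 and 5.09 in the labelled pregnant arrays, against 6.97, 6.62, 6.44 and 5.94 in the labelled non-pregnant arrays. Every labelled pregnant array lay below every labelled non-pregnant array, and the difference was -1.74 (SE 0.27, adjusted p = 0.000592 in limma). The most 5′ probe of the same gene differed in the other direction. KRT8 probe 4 gave -1.09, -1.98, -1.67 and -0.94 in the labelled pregnant arrays, against -2.76, -2.50, -1.98 and -1.84 in the labelled non-pregnant arrays. The groups overlapped, since labelled pregnant array 2 lay below labelled non-pregnant array 4, and the difference was 0.85 (SE 0.31, adjusted p = 0.0391 in limma). Between them, KRT8 probes 3 and 2 gave differences of -1.001 (SE 0.50, adjusted p = 0.113) and -1.02 (SE 0.44, adjusted p = 0.0723), neither of them called. The call of KRT8 therefore rests on its 3′ probe, while probes 2 and 3 had the same sign, and with the mean of its 4 probes the difference was -0.73 (adjusted p = 0.0575).

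KRT18, the type I partner of KRT8, was not called on any of its 3 probes. Its brightest and most 3′ probe gave 2.03, 1.96, 2.23 and 2.79 in the labelled pregnant arrays, against 3.29, 2.97, 1.87 and 1.85 in the labelled non-pregnant arrays. The groups overlapped, with labelled non-pregnant arrays 1 and 2 above and arrays 3 and 4 below all labelled pregnant arrays, and the difference was -0.24 (SE 0.37, adjusted p = 0.598 in limma). KRT18 probe 2 gave 0.34 (SE 0.32, adjusted p = 0.394) and probe 3, the most 5′, gave 0.55 (SE 0.33, adjusted p = 0.177). The sign of KRT18 thus depended on the probe, and none of these p-values shows that the groups were alike.

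In both genes the value of labelled pregnant minus labelled non-pregnant was lower at the 3′ end than at the 5′ end. From the most 5′ to the most 3′ tested probe it dropped by 2.59 in KRT8 and by 0.79 in KRT18, while the probes of KRT19, which lie close together, differed by 0.04. Over the 7125 genes with at least 2 placed and tested probes, the median of the same quantity was -0.11, with quartiles of -0.59 and 0.40, and it was below 0 in 57.2%. Probes that hold AATAAA, set against the other tested probes of their gene, had a median of -0.19 over 1675 genes, beside -1.35 for KRT8, -0.68 for KRT18 and -0.04 for KRT19. This comparison along the genes was chosen after the values had been seen and carries no test. The RNA was copied from an oligo-dT primer, per the labels, and the part of RNA quality or transcript ends in this pattern was not tested.

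**Figure D2:**
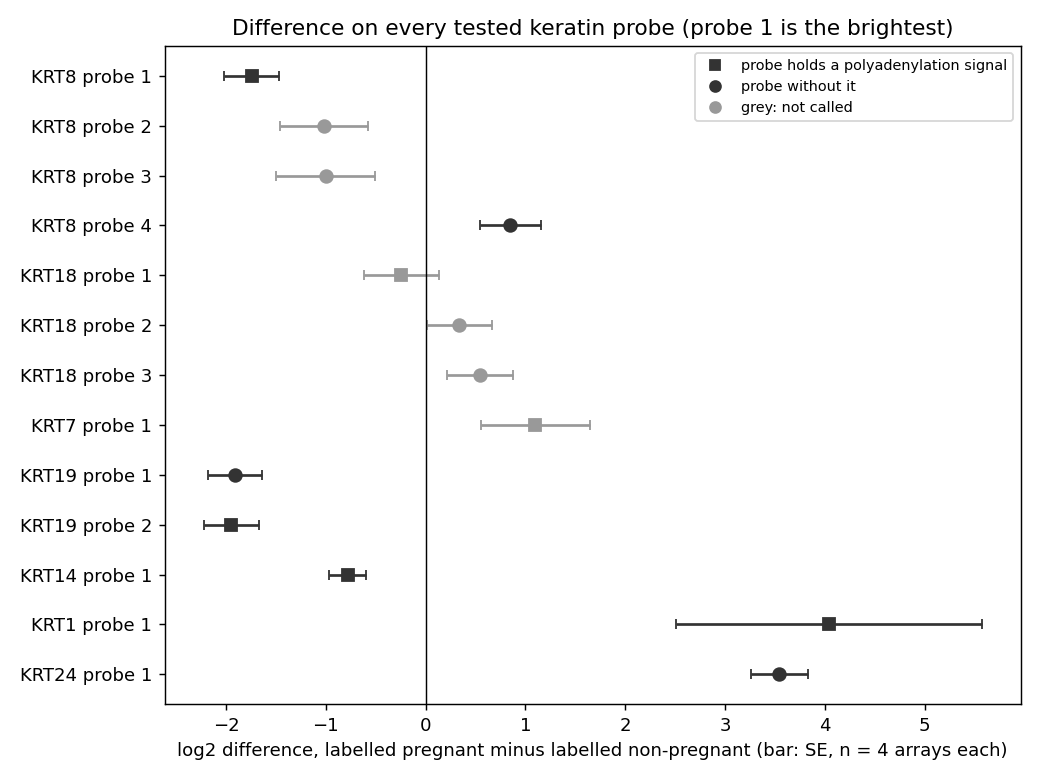
Difference in log2 signal, labelled pregnant minus labelled non-pregnant, with its SE (n = 4 arrays in each group), for the 13 tested keratin probes; squares hold AATAAA, circles do not, and grey marks probes that were not called. KRT8 runs from -1.74 on probe 1 to 0.85 on probe 4, KRT18 from -0.24 to 0.55, and the KRT19 probes lie together at -1.91 and -1.95.

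KRT19, the smallest type I keratin, which lacks most of the tail domain, fell with the same size on both of its probes. The brighter probe gave 3.21, 3.11, 3.82 and 2.53 in the labelled pregnant arrays, against 5.20, 4.97, 5.18 and 4.97 in the labelled non-pregnant arrays. All labelled pregnant arrays lay below all labelled non-pregnant arrays, which were close to each other, and the difference was -1.91 (SE 0.27, adjusted p = 0.000296 in limma). KRT19 probe 2 differed by -1.95 (SE 0.27, adjusted p = 0.000305), also without overlap.

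KRT7, a type II chain of glandular, ductal and trophoblast epithelium, was not called over all 8 arrays. It gave 0.04, 0.65, 1.13 and -1.73 in the labelled pregnant arrays, against -0.95, -1.18, -1.34 and -0.84 in the labelled non-pregnant arrays. The first 3 labelled pregnant arrays lay above and array 4 below all labelled non-pregnant arrays. The difference was 1.101 (SE 0.54, adjusted p = 0.110 in limma), and it was 1.68 (SE 0.28, adjusted p = 0.00109) without labelled pregnant array 4. A second probe that shares 52 bases with the KRT7 probe, but which the files list under another identifier, gave 1.09 (SE 0.53, adjusted p = 0.106) with the same order of arrays, so it is no independent reading.

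On their brightest probes, the partner chains of simple epithelium shifted against each other within arrays. The log2 signal of KRT7 minus that of KRT19 was -3.17, -2.46, -2.69 and -4.26 in the labelled pregnant arrays, against -6.15, -6.15, -6.52 and -5.82 in the labelled non-pregnant arrays. All labelled pregnant arrays, array 4 included, lay above all labelled non-pregnant arrays, and the means differed by 3.01 (SE 0.43, n = 4 arrays per group, two-sided exact permutation p = 0.0286, adjusted p = 0.0286 over 2 pairs). KRT8 minus KRT18 was 2.40, 2.49, 2.80 and 2.31 in the labelled pregnant arrays, against 3.68, 3.65, 4.57 and 4.09 in the labelled non-pregnant arrays. The groups did not overlap, and the means differed by -1.50 (SE 0.24, n = 4 arrays per group, two-sided exact permutation p = 0.0286, adjusted p = 0.0286). A p of 0.0286 is the smallest that 4 arrays against 4 allow, and both differences include the probes chosen as brightest. With the next brightest probe in place of the brightest, KRT8 minus KRT18 differed by -1.36 (adjusted p = 0.0571), and with the mean of each gene's probes by -0.94 (adjusted p = 0.0571). On the most 5′ probes KRT8 differed by 0.85 and KRT18 by 0.55, so KRT8 did not fall against KRT18 there. Those probes were not tested as a pair. The pairs KRT5 with KRT14 and KRT5 with KRT17 could not be compared, since KRT5 and KRT17 were not tested.

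**Figure D3:**
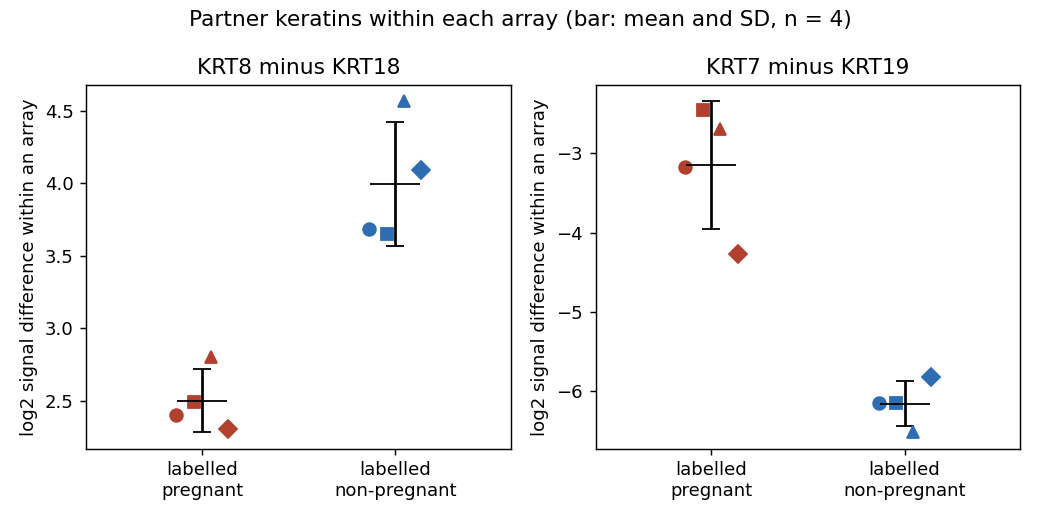
Log2 signal of the type II keratin minus that of its type I partner on each array, with labelled pregnant arrays in red on the left and labelled non-pregnant arrays in blue on the right, and the mean with its SD (n = 4). KRT8 minus KRT18 is lower in every labelled pregnant array than in any labelled non-pregnant array, and KRT7 minus KRT19 is higher in every labelled pregnant array than in any labelled non-pregnant array.

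Of KRT5, KRT14 and KRT17, which mark basal or activated stratified epithelium, KRT14 alone was tested. KRT14, the type I chain of basal cells, gave -2.65, -2.63, -2.80 and -2.82 in the labelled pregnant arrays, against -2.17, -2.08, -1.58 and -1.93 in the labelled non-pregnant arrays. The groups did not overlap, and the difference was -0.78 (SE 0.19, adjusted p = 0.00608 in limma), which is less than 2-fold. With another background correction, normexp, it was -0.43 (adjusted p = 0.0576). The other KRT14 probe was well above background on 0 labelled pregnant arrays and on 1 labelled non-pregnant array. KRT5, the type II partner of KRT14, was well above background on 0 labelled pregnant arrays and 2 labelled non-pregnant arrays on its brighter probe, and on 0 and 1 on the other. KRT17, a type I chain induced in injured or activated epithelium, was well above background on 0 labelled pregnant arrays and on 3 of 4 labelled non-pregnant arrays with each of its probes. KRT17 probe 1 had means of -5.93 in the labelled pregnant arrays and -5.31 in the labelled non-pregnant arrays. Most of its labelled pregnant values exceeded the lowest signal measured as above background on their array, so no smallest fold is given. Probe 2, which the files also tie to KRT14, has no fold because the bound was under 1. These probes were not tested, and the 4 KRT17 values of probe 1 in the labelled non-pregnant arrays ran from -6.73 to -4.49, around those of the labelled pregnant arrays at -6.18 to -5.45.

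KRT1, the type II chain of keratinising epidermis, was called higher on values that split the labelled pregnant arrays. It gave -0.90, 0.12, 0.20 and -7.18 in the labelled pregnant arrays, against -6.06, -4.93, -7.49 and -5.43 in the labelled non-pregnant arrays. Labelled pregnant arrays 1, 2 and 3 lay above all labelled non-pregnant arrays and array 4 lay among them, and 3 arrays of each group were well above background. The difference was 4.04 (SE 1.53, adjusted p = 0.0470 in limma). Leaving out labelled pregnant array 4 gave 5.79 (adjusted p = 7.35e-05), while leaving out any other single array gave 3.33 to 4.39 with adjusted p from 0.0636 to 0.116, so the call did not hold under those. KRT10, the type I partner of KRT1, was well above background on at most 1 of the 8 arrays. Of 7 tested markers of squamous epithelium 1 rose, LORICRIN, 2 fell and 4 were not called. Calls covered 42.9% of these markers, beside 62.7% of all tested genes.

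KRT24, a type I keratin that has been described in keratinocytes and other surface epithelia, showed the clearest higher signal. It gave -0.98, -1.65, -2.10 and -1.27 in the labelled pregnant arrays, against -4.99, -5.17, -4.59 and -5.43 in the labelled non-pregnant arrays. All labelled pregnant arrays, array 4 included, lay above all labelled non-pregnant arrays by more than the spread within either group, and the difference was 3.54 (SE 0.29, adjusted p = 1.16e-05 in limma). The gene was read by 1 probe on 2 spots. KRT23, a type I keratin known from simple epithelia and their tumours, was well above background on 0 of the 8 arrays, and its single probe ran from -7.81 to -6.99 in the labelled pregnant arrays and from -8.55 to -8.04 in the labelled non-pregnant arrays. KRT23 was not tested and has no fold, since both groups were below background.

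Labelled pregnant array 4 did not deviate in the same direction for all keratins. Relative to the mean of the other 3 labelled pregnant arrays, array 4 was lower by 6.99 for KRT1, by 2.34 for KRT7 and by 0.85 for KRT19, and higher by 0.71 for KRT18, by 0.46 for KRT8 and by 0.30 for KRT24. The same array had the highest marker means of its group for epithelium in general, amnion epithelium (-2.63) and erythroid cells (-5.31). It had the lowest for trophoblast (-3.84), uterine epithelium and gland (-0.81), squamous epithelium (-4.33), endothelium (0.45), stroma (4.31), mesothelium (-1.36) and leukocytes (1.02). The part of these markers in the KRT1 and KRT7 values was not tested.

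Genes with the most similar profiles were found for the 4 called keratins above background on all 8 arrays, by the root mean square difference of mean-centred log2 values over the 8 arrays. For KRT8 they were EIF4B (0.135) and TMEM139 (0.151), for KRT14 TRAFD1 (0.058) and TRPC4AP (0.073), for KRT19 TOR1AIP2 (0.212) and HMG20B (0.227), and for KRT24 GABRG3 (0.206) and ZNF19 (0.228). No keratin was among them.

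The other keratins were mostly dim. Of 42 other keratin genes with a probe, 15 were tested and 20 were above background on no array. Among the 15, 6 were higher, 3 lower and 6 not called, while 29.7% of all tested genes were called higher and 33% lower. The groups did not overlap for 7, beside 60.3% of all tested genes. The 7 include KRT85, whose value on labelled pregnant array 1 was dropped. KRT35, a type I keratin of the hair matrix and cuticle, gave -0.27, 0.29, 0.01 and -0.65 in the labelled pregnant arrays, against -2.96, -2.43, -2.18 and -2.80 in the labelled non-pregnant arrays. It was higher in every labelled pregnant array, by 2.44 (SE 0.27, adjusted p = 6.57e-05 in limma). KRT77, a type II keratin of eccrine sweat ducts, was higher by 1.68 (SE 0.52, adjusted p = 0.0209), with 3 labelled pregnant arrays and 1 labelled non-pregnant array above background, and KRT86, a hair cortex keratin, by 1.02 (SE 0.34, adjusted p = 0.0272). KRT80, a type II keratin found at cell margins, was lower, at -1.17 (SE 0.33, adjusted p = 0.0140). Smaller calls were KRT75, KRT78 and KRT81, higher by 0.76 to 0.97, KRT79, lower at -0.65, and KRT85, lower at -0.93 on 7 arrays because 1 outlying spot of labelled pregnant array 1 was dropped. With that spot kept, KRT85 gave -0.38 (adjusted p = 0.524). KRT15, a type I chain of basal cells, was not called on its brightest probe, at -0.56 (SE 0.49, adjusted p = 0.344). Of its 2 tested probes the dimmer 1 was called lower. Over the alternatives the difference of KRT15 ran from -1.67 to -0.23. The higher calls of the other keratins except KRT35 were near the threshold. With median scaling only KRT35 of the 6 stayed called, while the other 5 kept their sign. Leaving out 1 array ended the call in 6 of 8 cases for KRT75, 5 for KRT86, 4 for KRT81 and 2 for KRT77, with adjusted p between 0.0543 and 0.108, and KRT77 gave 0.78 with normexp. The lower call of KRT79 was lost without labelled pregnant array 3 (adjusted p = 0.0529).

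**Figure D4:**
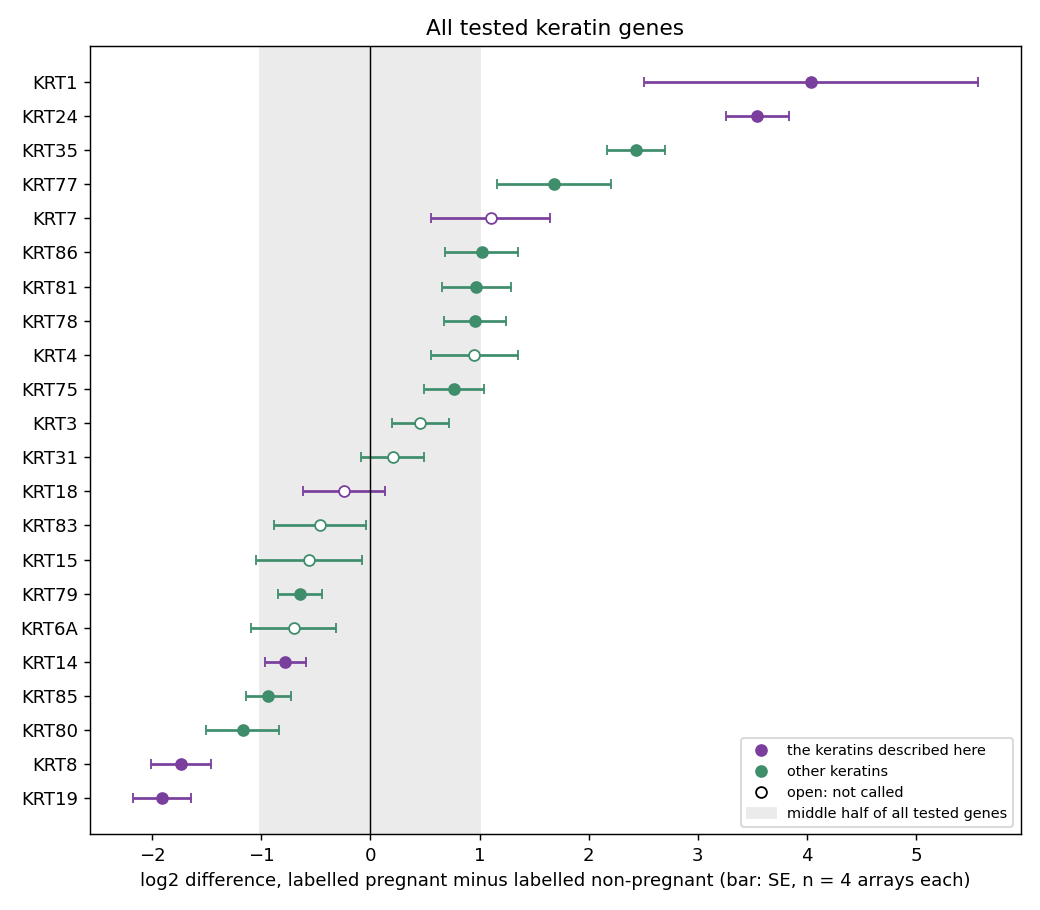
Difference in log2 signal, labelled pregnant minus labelled non-pregnant, with its SE (n = 4 arrays in each group, 3 labelled pregnant arrays for KRT85) for the 22 tested keratin genes in order of size; purple marks the genes followed here, green the other keratins, open circles genes that were not called, and the grey band the quartiles of all tested genes. KRT1, KRT24 and KRT35 stand at the high end between 2.44 and 4.04, and KRT8 and KRT19 at the low end near -1.74 and -1.91.

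Among the 13 tested genes of other intermediate filaments, 4 rose and 6 fell, with a median of 0.21. Calls covered 76.9% of them, beside 62.7% of all tested genes. DES, the desmin of muscle, rose by 3.41 (SE 0.21, adjusted p = 2.68e-06 in limma), with no overlap between the groups, and by 1.59 on its next brightest probe. DES is itself a smooth muscle marker, and 5 of 7 tested markers of that tissue rose, DES among them. This made 71.4% called higher, beside 29.7% of all tested genes called higher. Mean signals of the 7 markers were 1.31 to 2.89 in the labelled pregnant arrays and 0.33 to 1.15 in the labelled non-pregnant arrays. The part of these markers in the result was not tested. GFAP, the filament protein of astrocytes and some other cells, rose by 4.07, although labelled pregnant array 4, at -4.22, lay far below its group. NES, the nestin of progenitor cells, rose by 2.10 and SYNC, a desmin-associated coiled-coil protein, by 1.94, a call that was lost without scaling (1.45, adjusted p = 0.0732). VIM, the filament protein of mesenchymal cells, gave 6.42, 6.61, 6.35 and 6.33 in the labelled pregnant arrays, against 6.29, 6.11, 6.32 and 5.56 in the labelled non-pregnant arrays. All 4 labelled pregnant values exceeded the labelled non-pregnant ones, yet the difference of 0.36 (SE 0.21) was not called, and it was -0.03 with median scaling and -0.13 without scaling. The nuclear lamins fell together, LMNB1 at -2.88, LMNA at -1.18 and LMNB2 at -1.0002, although the next brightest probes gave -0.54 for LMNB1 (adjusted p = 0.0172) and -0.08 for LMNB2 (adjusted p = 0.819), and LMNA gave -0.74 with quantile normalization. SYNM, a large filament protein that partners desmin and vimentin, gave -1.72 on its brightest probe and -0.09 (adjusted p = 0.808) on the next brightest, and BFSP1, a lens beaded filament protein, fell by 1.46.

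Genes of the junctions that anchor keratin filaments changed in both directions. Of 9 tested desmosome genes, 1 rose, 2 fell and 6 were not called, with a median of 0.15. This made 33.3% called, beside 62.7% of all tested genes. DSP, desmoplakin, which ties keratins to the desmosome, gave 1.81, 1.09, 1.49 and 1.74 in the labelled pregnant arrays, against 2.87, 2.82, 2.34 and 2.71 in the labelled non-pregnant arrays. It was lower in every labelled pregnant array, with a difference of -1.15 (SE 0.22, adjusted p = 0.00190 in limma), and -1.91 on its next brightest probe. PERP, a desmosomal membrane protein, fell by 1.30, while JUP, plakoglobin, which serves desmosomes and adherens junctions, rose by 1.14, or by 0.75 with median scaling and 0.65 without scaling. Of 6 tested hemidesmosome genes, 2 rose and 1 fell, with a median of 0.61 and 50% called, beside the same 62.7%. DST, which includes the isoform that ties keratins to hemidesmosomes and also isoforms of muscle and nerve, averaged 4.43 in the labelled pregnant arrays and -0.64 in the labelled non-pregnant arrays, a rise of 5.07 (SE 0.23, adjusted p = 6.05e-07 in limma). LAMB3, a chain of an epithelial laminin, rose by 2.63, and ITGB4, the integrin of hemidesmosomes, fell by 1.15 (adjusted p = 0.0254), a call lost on its next brightest probe (-0.80, adjusted p = 0.248), with quantile normalization (-0.76) and without any 1 of labelled pregnant arrays 1, 2 and 3 or labelled non-pregnant arrays 1 and 2 (adjusted p = 0.0534 to 0.0708).

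Of 20 tested proteins that bind, fold or modify keratins, 3 rose, 9 fell and 8 were not called, with a median of -0.54. The share called was 60%, near the 62.7% of all tested genes. HSPB1, a small heat shock protein that associates with keratin filaments, gave 7.20, 6.73, 6.90 and 6.85 in the labelled pregnant arrays, against 4.91, 4.81, 4.66 and 4.54 in the labelled non-pregnant arrays. It was higher in every labelled pregnant array, by 2.19 (SE 0.18, adjusted p = 1.31e-05 in limma), but its next brightest probe gave -0.49 (adjusted p = 0.113). EPPK1, epiplakin, which binds keratins, rose by 1.53, and FBF1, a keratin-binding protein, by 1.33, or by 0.85 without scaling. FAM83H, which recruits casein kinase 1 to keratin filaments, fell by 2.60, and CSNK1A1, the casein kinase 1 alpha that it recruits, by 1.63. CASP6, a protease that cleaves type I keratins during apoptosis, fell by 2.15, and the chaperone HSPA8 fell by 1.03, with a difference of -0.44 under quantile normalization.

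Of 18 tested regulators of epithelial and keratin genes, 4 rose, 8 fell and 6 were not called, with a median of -0.77. The share called was 66.7%, near the 62.7% of all tested genes. TFAP2A, an AP-2 factor of surface ectoderm and trophoblast, gave -1.81, -1.73, -2.24 and -1.58 in the labelled pregnant arrays, against 4.88, 4.33, 4.27 and 3.74 in the labelled non-pregnant arrays. It was lower in every labelled pregnant array, with a difference of -6.14 (SE 0.27, adjusted p = 4.90e-07 in limma), which was -1.12 (adjusted p = 0.0310) on its next brightest probe. GRHL1, a grainyhead-like factor of epithelial barriers, fell by 4.13, TFAP2C, a second AP-2 factor, which is also among the trophoblast markers, by 2.43, and OVOL1 by 2.15. TP63, the master regulator of stratified epithelium and of KRT5 and KRT14, was above background on 0 labelled pregnant arrays. It was at least 4.92-fold lower there. GRHL3, also above background on 0 labelled pregnant arrays, had a fitted difference of -2.28 (adjusted p = 0.00244 in limma). Most of its labelled pregnant values exceeded the lowest signal measured as above background on their array, so GRHL3 has no smallest fold. With normexp the differences were -0.35 (adjusted p = 0.149) for TP63 and -0.17 (adjusted p = 0.502) for GRHL3. KLF5, a Krüppel-like factor of proliferating epithelium that is also made by smooth muscle, rose by 3.54, and NOTCH1, a receptor that drives keratinocyte differentiation, by 1.78. ELF5, an epithelial ETS factor, rose by 3.03 (SE 0.95, adjusted p = 0.0220) with array 4 at -3.39, beside 0.58 to 1.40 in the other labelled pregnant arrays. Leaving out any 1 of labelled pregnant arrays 1, 2 and 3 or labelled non-pregnant arrays 2 and 4 raised its adjusted p to between 0.0531 and 0.0601. KLF4 rose by 1.37 on its brightest probe, with -0.23 (adjusted p = 0.579) on the next.

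Of 11 tested genes of the cornified envelope and squamous differentiation, 3 rose, 5 fell and 3 were not called, with a median of 0.19. Calls covered 72.7% of them, beside 62.7% of all tested genes. LORICRIN, the main protein of the cornified envelope, was above background on all 4 labelled pregnant arrays and on 0 labelled non-pregnant arrays. Its fitted difference was 4.19 (SE 0.24, adjusted p = 1.98e-06 in limma), although with normexp it was 1.40. Most of its labelled non-pregnant values exceeded the lowest signal measured as above background on their array, so no smallest fold is given. CALML5, a calmodulin-like protein of differentiating keratinocytes, gave -5.05, -7.14, -5.17 and -7.84 in the labelled pregnant arrays, 2 of them above background, against 5.90, 5.35, 5.57 and 4.20 in the labelled non-pregnant arrays. It was lower in every labelled pregnant array, with a fitted difference of -11.56 (SE 0.67, adjusted p = 1.94e-06) that was -8.70 with normexp and -5.77 on its next brightest probe. TGM3, a transglutaminase, fell by 3.26, although labelled pregnant array 4, at -0.63, overlapped the labelled non-pregnant arrays, and the next brightest probe gave -1.32 (adjusted p = 0.102). SCEL, sciellin, fell by 2.74, and its difference was -1.71 with normexp. LYPD3 fell by 1.15 with overlapping groups, and leaving out any 1 of labelled pregnant arrays 2, 3 and 4 or labelled non-pregnant arrays 2 and 3 ended its call (adjusted p = 0.05005 to 0.0623). CSTA, cystatin A, was at least 5.96-fold lower, with -0.36 (adjusted p = 0.325) under normexp.

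**Figure D5:**
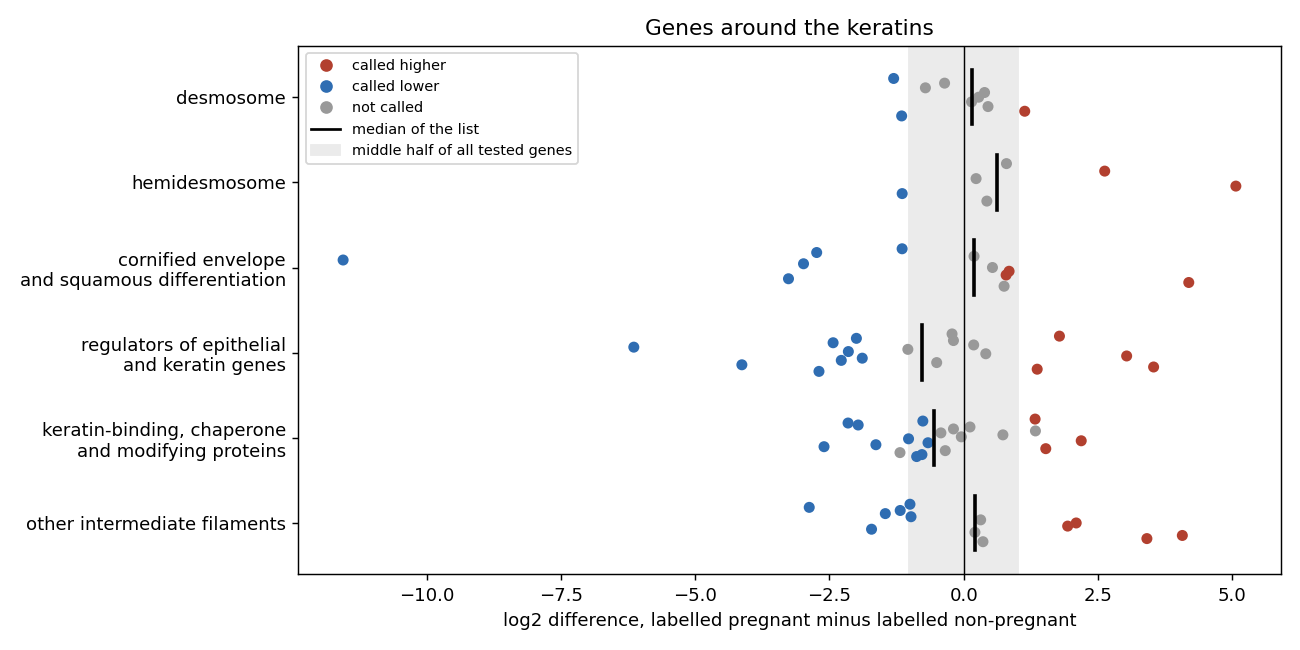
Difference in log2 signal, labelled pregnant minus labelled non-pregnant, for the tested genes of 6 lists around the keratins; red marks genes called higher, blue called lower, grey not called, black bars the list medians and the grey band the quartiles of all tested genes. The medians run from -0.77 for the regulators to 0.61 for the hemidesmosome genes and all lie within the band, while single genes reach from -11.56 (CALML5) to 5.07 (DST).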

How the data were processed

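The authors deposited scanner output in intensity units for 8 arrays, and per the file headers the program was Agilent Feature Extraction, version 11.5.1.1, run with GE1_1105_Oct12. Per the same headers this intensity is background-subtracted but not scaled between arrays. A second deposited table holds log2 values, whose scale and centring are not given in the sources used here. Its columns correlated at r of at least 0.999 with log2 intensity, with 75th percentiles near 0 and medians of -3.56, -3.61, -3.64 and -3.61 for labelled pregnant and -4.21, -4.01, -4.00 and -3.77 for labelled non-pregnant arrays.

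Control spots (1319 per array) and 119 outlying spots over all arrays were left out, no spot was saturated, and spots of a probe were averaged. A probe counted as above background where that flag was set on 0.5 or more of its spots on the array. Probes were named through their accession in a cattle RefSeq gene table, used for names only (ARS-UCD2.0), for 28112 probes, another accession for 1770, the symbol for 5523 and a synonym for 149, and 15726 kept the file's name. limma 3.58.1 in R 4.3.3 compared the groups without covariates on all 8 arrays, with Benjamini-Hochberg adjustment over 34630 probes. Array number limits the precision. A bound ("at least N-fold") sets the bright group's mean against, per dim array, the higher of the lowest above-background signal and the probe's own. The model was tested on simulated data. Genes were named by a rule: all 10 keratins and, of the other keratins and each list, called genes at least 2-fold changed, up to 5 in each direction, beside smaller calls given for completeness; 1 gene that the rule takes is not reported here. OVOL1 was named beyond this limit of 5. KRT15, VIM, KRT10, CDX2 and PLAC1 were named after their values were seen. The keratins and lists were chosen with earlier results of these data known. Alternatives changed the background correction, scaling, filter, probe choice, model and arrays used.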

Additional observations from a re-analysis of the deposited data

Results flagged for a closer look

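One of the 20 groups of 4 arrays checked, taking the brightest probe of each of the 10 keratins, had an array far from the others. In KRT1, the gap from labelled pregnant array 4 (-7.18) to its nearest neighbour (-0.90) was 0.851 of the range of the 4 labelled pregnant arrays, which passes Dixon's limit for 4 values. Chance alone flags about 1 in 20 groups.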

How the results depend on the processing

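KRT24 (2.38 to 3.74) and KRT19 (-2.40 to -1.42) kept direction and call under all 22 alternatives. KRT1 was called under 9 of 21 (2.65 to 5.79). It was not called with median scaling (3.65, adjusted p = 0.0554), no scaling, quantile normalization, the deposited log2 table or the replicate block, and was not tested with probes required on all 8 arrays, so that 1 keratin rather than 2 was called higher under these 6. Leaving out 1 array gave 1 to 3 higher. KRT8 lost its call with the next brightest probe (-1.02, adjusted p = 0.0723) and the mean of probes (-0.73), and KRT14 with normexp. KRT18, never called, turned positive with the next brightest probe (0.34), quantile normalization (0.024), the mean of probes (0.214) and without labelled non-pregnant array 1 (0.023), where leaving out any 1 array gave -0.458 to 0.023. KRT7 minus KRT19 differed by 3.05 with the next brightest probe, 3.03 with the mean of probes (adjusted p = 0.0571 each) and 3.27 without labelled pregnant array 4 and labelled non-pregnant array 3 (adjusted p = 0.1), and KRT8 minus KRT18 by -1.36, -0.94 and -1.25. Leaving out 1 array gave 2.78 to 3.38 and -1.61 to -1.31, where 0.0571 is the smallest p possible.

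Other keratins called numbered 9, of them 6 higher and 3 lower. They were 5 with median scaling (1 higher), 2 higher without scaling and 2 higher with quantile normalization, and 26 without the filter on dim probes (20 higher, 6 lower). Leaving out 1 array gave 5 to 11 called, 2 to 8 higher and 2 to 5 lower. In the cornified envelope list 5 genes rather than 8 were called with probes required on all 8 arrays, and the other 5 lists stayed within 1.5 times of their count. The causes were not tested, except that the stricter filter leaves fewer genes to test. Without the filter KRT23 gave 0.82 (adjusted p = 0.0195), below background in both groups, KRT17 -0.61 (adjusted p = 0.273) and KRT5 0.01 (adjusted p = 0.989).

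The all-gene median was -0.42 under median scaling, -0.52 unscaled, 0.13 where the percentile used only detected probes and 0.21 when dim probes stayed in. Median scaling, no scaling and the other percentile shift every gene on an array by the same amount. Relative to the all-gene median, quantile normalization gave 1.01 for KRT7 and 0.0009 for KRT18. Same-numbered arrays deviated together only weakly (r = 0.009, 0.075, 0.050 and 0.155), so the numbers were not taken as pairs. The replicate block gave 7847 called genes rather than 8087, and 1 keratin called higher rather than 2. Array 4 was the only number over 0.1, and every number except 1 correlated best with itself.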
